A study of Mus musculus with 6 samples.

Results

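The liver makes bile acids from cholesterol, and 10 genes of that process were followed here in cultures that the study names damaged mouse hepatocytes. They were taken from the 52323 genes of the count table by gene symbol. Cyp7a1 and Cyp8b1 belong to the classic pathway. Cyp27a1 and Cyp7b1 are assigned here to the alternative pathway. Hsd3b7, Akr1d1 and Acox2 act on steps that both pathways share, Slc27a5 and Baat join the finished bile acid to an amino acid, and Slc10a1 carries bile salts from the blood into the hepatocyte.

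RNA was sequenced from damaged hepatocytes (dHeps), liver cells isolated from mice with chronic carbon tetrachloride (CCl4) injury and kept in culture until day 16. All groups shared the genotype AAV-TBG-Cre:Rosa-LSL-tdTomato, in which the hepatocyte promoter TBG drives the Cre that switches on the red reporter tdTomato, and all were grown in serum-free Hepatocyte Maintenance Medium. The DMSO group received the solvent. The 3C group received CID755673 at 50 µM, GSK429286A at 2 µM and ETC-1002 at 5 µM. The 5C group received those 3 compounds at the same doses with salidroside at 5 µM and forskolin at 2 µM, so 5C against 3C asks what differed when the last pair was present. CID755673 is an inhibitor of protein kinase D and GSK429286A of the kinase ROCK, and forskolin is known to activate adenylate cyclase. Each group had 2 libraries. The labels give no age for the animals and do not say whether the libraries of a group came from separate animals or cultures, so the p-values measure the spread between these libraries only.

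In the classic pathway the enzyme CYP7A1 adds a hydroxyl group to carbon 7 of cholesterol, the step that limits the rate of synthesis in liver, and CYP8B1 then directs the product towards cholic acid. In the alternative pathway the mitochondrial enzyme CYP27A1 oxidises the cholesterol side chain first and CYP7B1 supplies the 7-hydroxyl group. Bile acids hold down Cyp7a1 in liver through the nuclear receptor FXR (Nr1h4) and its target SHP (Nr0b2), and hepatocytes in culture are known for losing Cyp7a1.

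Totals were 65916573 to 69245895 estimated counts per library, and the largest was 1.05 times the smallest. CPM are counts scaled to a common library total. The floor used here is 12 count units, taken as 3 sequenced fragments, or 0.173 to 0.182 CPM. The 10 hepatocyte markers (among them Alb) summed to 1449 to 1661 CPM in DMSO, 9180 to 9647 in 3C and 8855 to 13190 in 5C. Alb alone made up most of each sum, with 1357 and 1182 CPM in DMSO, 7402 and 7769 in 3C, and 6766 and 10400 in 5C. The 12 macrophage markers summed to 12360 to 13440 CPM in DMSO, 4081 to 4097 in 3C and 2699 to 2782 in 5C. Lyz2 was the largest part of the macrophage sum, with 6024 and 6137 CPM in DMSO. Both sums thus weigh single genes heavily and do not measure shares of cells. In DMSO the macrophage sum was above the hepatocyte sum, so levels in these libraries cannot be credited to hepatocytes alone. None of the hepatocyte or macrophage markers was at 0 in all libraries. In bulk RNA, fewer cells of a type and less RNA per cell cannot be told apart, and this holds for every gene below.

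The 2 genes assigned to the classic pathway were at or near 0 in every group. Cyp7a1 (chromosome 4, 6265612 to 6275633 of GRCm39) had 0 counts in both DMSO libraries, in 3C replicate 2 and in both 5C libraries, and 8 count units, 0.121 CPM, in 3C replicate 1. Cyp8b1 (chromosome 9, 121743422 to 121745371) had 0 counts in 5 of 6 libraries and 4 units, 0.0578 CPM, in 5C replicate 2. Both genes were thus under the floor of 12 units in all 6 libraries, neither passed the filter on low counts, and no fold change can be given. At this depth a share of up to 1.82e-05% of a library's counts would have gone undetected for either gene. That limit rests on the assumed floor and covers counting error only.

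The 2 genes assigned to the alternative pathway were expressed in every library, and Cyp7b1 was called higher with either cocktail. Cyp7b1 (chromosome 3, 18117411 to 18297740), the oxysterol 7-hydroxylase, stood at 14.8 and 11.9 CPM in DMSO, 34.9 and 42.6 in 3C, and 37.5 and 33.0 in 5C. The treated libraries were all above the DMSO libraries, while 3C and 5C overlapped. By edgeR's quasi-likelihood test with Benjamini-Hochberg adjustment Cyp7b1 rose 2.84-fold in 3C (log2 fold change 1.51, SE 0.140, adjusted p = 7.14e-05) and 2.68-fold in 5C (1.42, SE 0.140, adjusted p = 7.57e-05). The 5C against 3C difference was -0.09 on the log2 scale with a 95% interval of -0.39 to 0.22.

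Cyp27a1 (chromosome 1, 74752314 to 74777056), the sterol 27-hydroxylase, moved less. It stood at 37.9 and 35.1 CPM in DMSO, 52.4 and 49.5 in 3C, and 43.6 and 45.3 in 5C, so that the 3 groups did not overlap and 3C was the highest. Its log2 fold change was 0.45 in 3C (SE 0.0833, adjusted p = 0.00391) and 0.30 in 5C (SE 0.0833, adjusted p = 0.0239), both short of the 2-fold limit that a call requires here. The adjusted p of the 5C value was over 0.05 without DMSO replicate 2 (0.0874), 3C replicate 2 (0.0507) or 5C replicate 2 (0.123), in a fit of the 4 libraries compared (0.0596) and by limma on log2(FPKM + 1) (0.0879). Between 5C and 3C it differed by -0.15, with a 95% interval of -0.33 to 0.04. On the annotation 1088 of its 3321 exonic bases lie opposite Prkag3, which reached at most 0.361 CPM in any library.

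FPKM, a fragment count corrected for gene length and library depth, puts the genes assigned here to each pathway side by side. Sums of FPKM are RNA levels of these genes. They do not measure flow through a pathway or show which pathway an enzyme served. Cyp27a1 and Cyp7b1 together came to 25.6 and 21.7 FPKM in DMSO, 39.4 and 42.1 in 3C, and 37.4 and 35.3 in 5C. Cyp7a1 and Cyp8b1 together came to 0.0225 FPKM in 3C replicate 1, 0.0263 in 5C replicate 2 and 0 in the other libraries, so a ratio of classic to alternative could not be formed in 4 of 6 libraries. Within the alternative pathway the DMSO libraries had the lowest share of Cyp7b1, and those of 3C and 5C overlapped. Cyp7b1 made up 24.8% and 22.4% of the alternative FPKM in DMSO, 36.2% and 42.2% in 3C, and 42.4% and 38.4% in 5C. The mean log2 ratio of Cyp7b1 to Cyp27a1 was -1.70 ± 0.14 (SD, n = 2) in DMSO, -0.64 ± 0.257 in 3C and -0.56 ± 0.169 in 5C, and was not tested.

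**Figure D1:**
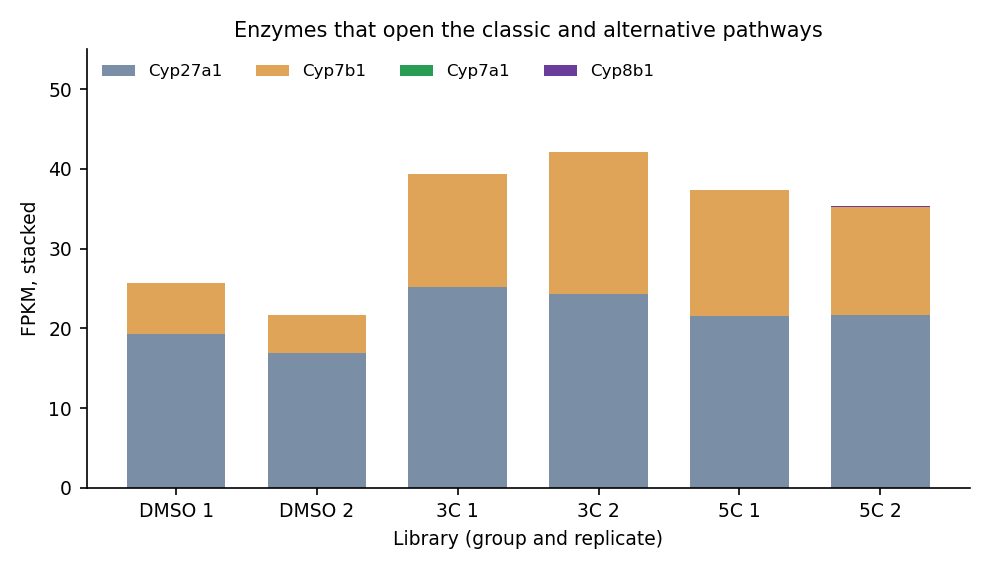
FPKM of Cyp27a1 and Cyp7b1 (alternative pathway) and Cyp7a1 and Cyp8b1 (classic pathway), stacked for each of the 6 libraries. The bars are made almost wholly of Cyp27a1 and Cyp7b1, and reach 21.7 to 25.6 FPKM in DMSO and 35.3 to 42.1 FPKM in 3C and 5C.

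The steps shared by both pathways did not move together. Hsd3b7, which oxidises the 3-hydroxyl group of the sterol ring, had 73.5 and 79.0 CPM in DMSO, 67.0 and 67.1 in 3C, and 68.0 and 62.0 in 5C. The DMSO libraries were the highest and the treated groups overlapped. The log2 fold changes of -0.22 in 3C (SE 0.076, adjusted p = 0.0701) and -0.21 in 5C (SE 0.076, adjusted p = 0.0674) missed the threshold, with 95% intervals of -0.39 to -0.05 and -0.39 to -0.04. Between 5C and 3C the estimate was 0.00492, with a 95% interval of -0.17 to 0.18. Hsd3b7 (chromosome 7, 127399597 to 127402989) is uncertain, because 3225 of its 3263 exonic bases overlap other annotated genes and 58.3% of its sequence words are shared with Gm49388, which was at 0 in all 6 libraries.

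Acox2, the peroxisomal oxidase that begins the shortening of the side chain, was highest in 3C. It had 42.0 and 47.2 CPM in DMSO, 123 and 117 in 3C, and 84.2 and 81.4 in 5C, and the groups did not overlap. Acox2 (chromosome 14, 14210395 to 14244262) rose 2.63-fold in 3C (log2 fold change 1.40, SE 0.0806, adjusted p = 5.89e-06). In 5C it was 1.88-fold higher than DMSO (0.91, SE 0.08, adjusted p = 3.78e-05), short of the 2-fold limit, and without DMSO replicate 2 it passed that limit at 1.01. Against 3C it was lower in 5C by a log2 difference of -0.48 (SE 0.0789, adjusted p = 0.00461), with a 95% interval of -0.66 to -0.31.

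Akr1d1, the reductase that gives the steroid ring its bent 5β shape, was highest in 5C instead. It had 0.357 and 0.121 CPM in DMSO, 1.04 and 1.55 in 3C, and 3.74 and 3.60 in 5C, with no overlap between groups. Akr1d1 (chromosome 6, 37506822 to 37545751) rose 5.28-fold in 3C (log2 fold change 2.40, SE 0.489, adjusted p = 0.0064) and 15.4-fold in 5C (3.95, SE 0.502, adjusted p = 0.000359). The DMSO values rest on 24 and 8 count units, and the log2 fold changes were 3.36 and 4.90 without DMSO replicate 1, and 1.84 and 3.38 without DMSO replicate 2, for 3C and 5C in that order. Its 5C against 3C difference of 1.55 (SE 0.438, 95% interval 0.55 to 2.54) had an adjusted p of 0.0514. The adjusted p was 0.0124 by DESeq2, and 0.0149 and 0.0144 by edgeR without DMSO replicate 1 or 2. The 3C against DMSO call was lost when the test itself required more than a 2-fold change (adjusted p = 0.0788) and by limma on log2(FPKM + 1), where the log2 fold change was 0.50 (adjusted p = 0.0546). The FPKM file gives a smaller change for this gene, with log2 ratios of group means of 2.97 for 5C and 2.02 for 3C against DMSO.

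Both conjugating enzymes rose with either cocktail, and they differed in how far 5C stood above 3C. Slc27a5, the bile acid ligase that makes the coenzyme A ester, had 0.253 and 0.410 CPM in DMSO, 3.65 and 3.14 in 3C, and 17.6 and 16.4 in 5C. Its 3 groups were far apart, each in a narrow range. Slc27a5 (chromosome 7, 12722273 to 12732137) rose 9.97-fold in 3C (log2 fold change 3.32, SE 0.258, adjusted p = 2.56e-05) and 51.7-fold in 5C (5.69, SE 0.269, adjusted p = 1.16e-06). It was 5.18-fold higher in 5C than in 3C (2.37, SE 0.218, 95% interval 1.88 to 2.87, adjusted p = 0.000381).

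Baat, which transfers taurine or glycine to the ester, had 0.744 and 0.956 CPM in DMSO, 10.03 and 11.5 in 3C, and 15.2 and 15.0 in 5C. The groups did not overlap, but the cocktails were much closer together than for Slc27a5. Baat (chromosome 4, 49489289 to 49506563) rose 12.4-fold in 3C (log2 fold change 3.63, SE 0.199, adjusted p = 4.54e-06) and 17.9-fold in 5C (4.16, SE 0.202, adjusted p = 1.24e-06). Between 5C and 3C the difference of 0.53 (SE 0.169, 95% interval 0.15 to 0.92) did not pass the test, with an adjusted p of 0.0774. The ratio of Slc27a5 to Baat FPKM was 0.286 and 0.369 in DMSO, 0.308 and 0.234 in 3C, and 0.964 and 0.929 in 5C. By length-corrected level the ligase thus lay well under the transferase in DMSO and 3C and close to it in 5C.

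Slc10a1 (NTCP), the sodium-dependent bile salt uptake transporter, was among the lowest of the expressed genes in DMSO. It had 0.223 and 0.0910 CPM in DMSO, 1.01 and 1.14 in 3C, and 3.37 and 3.73 in 5C, and no groups overlapped. Slc10a1 (chromosome 12, 80996372 to 81015479) rose 6.64-fold in 3C (log2 fold change 2.73, SE 0.449, adjusted p = 0.00201) and 22.6-fold in 5C (4.50, SE 0.461, adjusted p = 9.56e-05). The DMSO values rest on 15 and 6 count units. Without DMSO replicate 1 the log2 fold changes were 3.49 in 3C and 5.27 in 5C, and without DMSO replicate 2 they were 2.25 and 4.01. By limma on log2(FPKM + 1) the 3C value was 0.54 (adjusted p = 0.0174), under the fold limit.

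It was 3.41-fold higher in 5C than in 3C (log2 fold change 1.77, SE 0.389, 95% interval 0.89 to 2.65, adjusted p = 0.0179 by edgeR). That call was lost without either 3C library or either 5C library, with adjusted p of 0.128 and 0.0972 without 3C replicate 1 or 2 and 0.0741 and 0.117 without 5C replicate 1 or 2, while the log2 fold change stayed between 1.68 and 1.86. On the annotation 268 of the 3337 exonic bases of Slc10a1 lie opposite Srsf5, which had 259 to 326 CPM. Whether reads in the shared bases were told apart by strand could not be checked.

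**Figure D2:**
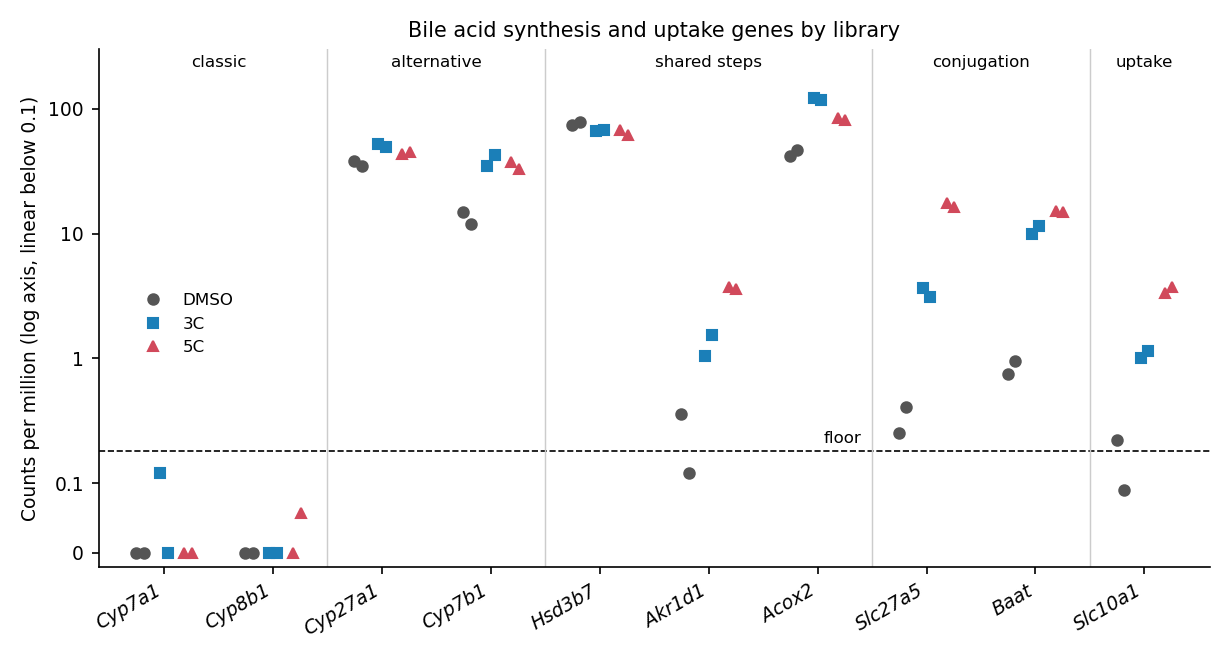
CPM of the 10 genes in each library (log axis, linear under 0.1), grouped by role, with DMSO as circles, 3C as squares, 5C as triangles and the floor as a dashed line. Cyp7a1 and Cyp8b1 lie at or near 0 throughout, while Slc27a5, Akr1d1 and Slc10a1 step up from DMSO to 3C to 5C and Acox2 is highest in 3C.

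Of the 10 genes, 8 passed the filter on low counts. Akr1d1 and Slc10a1 passed it through the treated libraries, since 1 of their DMSO libraries lay under it. A gene was called where the adjusted p was under 0.05 and the change over 2-fold. In 5C against DMSO 5 genes were called higher (Slc27a5, Slc10a1, Baat, Akr1d1 and Cyp7b1) and 0 lower, against a background of 7.3% higher and 4.42% lower among all 19135 genes that entered the fit. In 3C against DMSO 6 passed as higher, the same 5 and Acox2, and 0 lower, where the background was 5.83% higher and 3.62% lower. In 5C against 3C 2 were called higher (Slc27a5 and Slc10a1) and 0 lower, with 2.16% and 0.852% of all genes. By adjusted p alone the counts were 7, 7 and 3 of the 8, where 28.7%, 24.5% and 12.7% of all genes passed in either direction. The third in the last comparison was Acox2, which was lower in 5C. Both comparisons with DMSO use the same control libraries and are not independent of each other.

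The median log2 fold change of the 8 tested genes was 2.68 in 5C against DMSO, 1.95 in 3C against DMSO and 0.27 in 5C against 3C, where the medians of all genes tested were 0.00, 0.01 and -0.01. The 10 hepatocyte markers had medians of 3.04, 2.68 and 0.37 in the same comparisons, and 10 of 10, 10 of 10 and 1 of 10 were called higher. Among them Asgr1 had 20 and 0 count units in DMSO and passed the filter through the treated libraries. Of the 12 macrophage markers 11 were called lower in each cocktail against DMSO, with medians of -2.02 in 5C and -1.65 in 3C. Markers of other liver cells moved as well. Of 7 tested endothelial markers 5 were called higher and 1 lower in 5C against DMSO, and 3 higher and 1 lower in 3C against DMSO, with medians of 2.59 and 1.08. In 5C against 3C 3 were called higher, with a median of 1.52. Cdh5, a junction protein of endothelium, had 1.25 and 1.06 CPM in DMSO, 6.45 and 14.9 in 3C, and 43.3 and 72.2 in 5C. The lymphatic and sinusoidal marker Lyve1 fell, with 309 and 319 CPM in DMSO, 66.1 and 78.1 in 3C, and 48.8 and 66.4 in 5C. The summed level of the 8 markers was 328 to 337 CPM in DMSO, 88.7 to 121 in 3C and 144 to 221 in 5C. Lyve1 made up most of that sum in DMSO and 3C, so its fall there mainly follows that gene. Clec4g was at or under the floor in all libraries, and Erg was at 0 in DMSO.

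Of 8 cholangiocyte markers 3 were called higher and 1 lower in 5C against DMSO, 5 higher and 0 lower in 3C against DMSO, and 0 higher and 1 lower in 5C against 3C. Their medians were 0.72, 1.41 and -0.52, and their sums ran from 2960 to 3466 CPM in DMSO, 3599 to 3796 in 3C and 2424 to 2718 in 5C. Spp1 alone made up most of each sum, with 2748 and 3232 CPM in DMSO, 3182 and 3299 in 3C, and 2334 and 2058 in 5C. The sums therefore mainly follow that gene. Of 9 stellate cell and fibroblast markers 3 were called higher in 5C against DMSO, 1 higher and 1 lower in 3C against DMSO, and 1 higher in 5C against 3C. Their sums ran from 7702 to 9004 CPM in DMSO, 6955 to 7062 in 3C and 11410 to 12410 in 5C. The part of the mix of cell types in the members' changes was not tested.

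**Figure D3:**
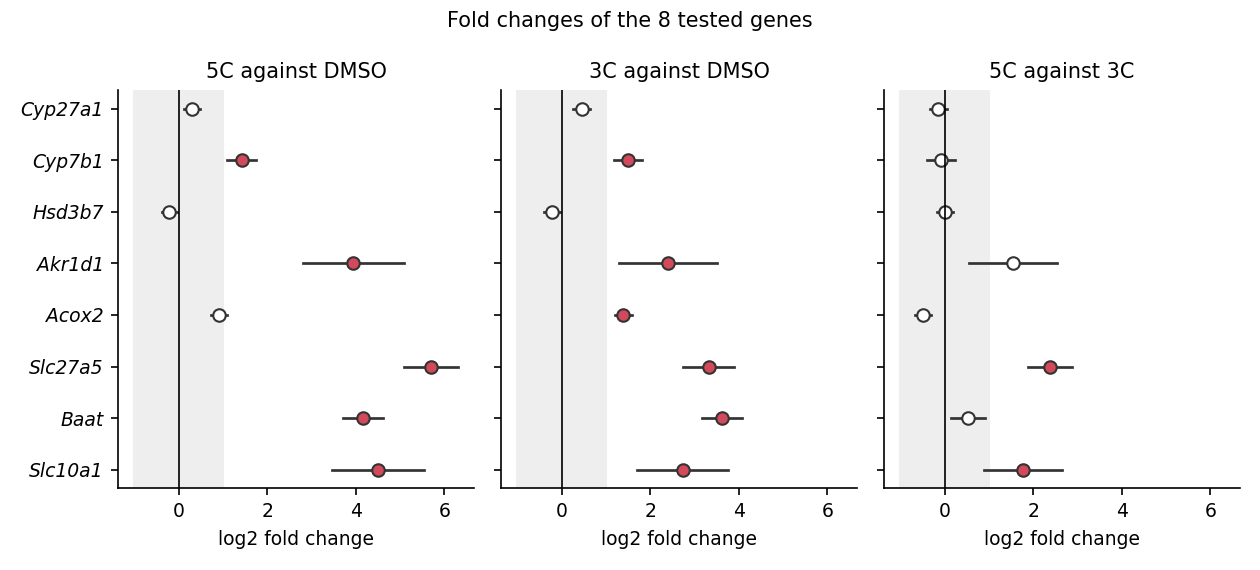
Log2 fold change (point) and 95% interval (bar) of the 8 tested genes in the 3 comparisons, with filled points for called genes and grey for changes under 2-fold. Slc27a5 and Slc10a1 are called in all 3, and Hsd3b7 lies near 0 in each.

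In order of FPKM level, DMSO ran from Hsd3b7 (37.4 ± 1.18, SD, n = 2) through Cyp27a1 (18.1 ± 1.70), Acox2 (14.3 ± 0.589) and Cyp7b1 (5.62 ± 1.07) to Baat (0.393 ± 0.0586). Akr1d1 (0.158 ± 0.172), Slc27a5 (0.130 ± 0.0424) and Slc10a1 (0.0860 ± 0.0647) followed, and overlapped each other. In 3C the first was Acox2 (37.9 ± 0.628), ahead of Hsd3b7 (32.2 ± 0.388), Cyp27a1 (24.7 ± 0.564), Cyp7b1 (16.0 ± 2.48), Baat (5.05 ± 0.519) and Slc27a5 (1.35 ± 0.124). Akr1d1 (0.641 ± 0.215) and Slc10a1 (0.582 ± 0.0462) came last there and overlapped. In 5C Hsd3b7 (32.1 ± 3.05) was again first, then Acox2 (26.1 ± 1.36), Cyp27a1 (21.6 ± 0.135), Cyp7b1 (14.7 ± 1.63), Baat (7.09 ± 0.299), Slc27a5 (6.72 ± 0.459), Slc10a1 (1.94 ± 0.10) and Akr1d1 (1.24 ± 0.0815). Of these 5C neighbours Baat and Slc27a5 overlapped. The order was thus led by shared and alternative-pathway enzymes in each group.

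The 250 bases before the start of the Ensembl canonical transcript of each gene were searched on both strands for the letters of 4 liver factor motifs, and are shown where a match was found. The HNF4 letters CAAAGTCCA occur in 2 of the 10 windows, Cyp8b1 and Baat, and in 0.372% of 21757 such windows of the genome. The letters AAGGTCA (LRH-1), TGTTTAC (FOXA) and TTATGTAA (DBP), which 3.93%, 2.72% and 0.832% of windows hold, occur in none of the 10. The Cyp8b1 window is chr9:121745372-121745621 and the Baat window chr4:49506564-49506813, both on the minus strand of GRCm39 and written 5′ to 3′ towards the gene, with the HNF4 letters in capitals.
Cyp8b1: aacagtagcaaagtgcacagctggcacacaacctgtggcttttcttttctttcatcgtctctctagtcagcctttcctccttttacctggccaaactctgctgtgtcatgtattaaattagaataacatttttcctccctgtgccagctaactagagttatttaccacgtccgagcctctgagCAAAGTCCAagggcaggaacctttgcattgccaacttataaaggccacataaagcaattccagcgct
Baat: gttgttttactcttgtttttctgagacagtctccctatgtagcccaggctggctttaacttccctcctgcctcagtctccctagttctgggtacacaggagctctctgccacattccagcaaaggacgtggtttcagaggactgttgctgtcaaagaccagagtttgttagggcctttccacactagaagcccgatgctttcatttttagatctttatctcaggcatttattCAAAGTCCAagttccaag
For Slc10a1, Cyp27a1, Hsd3b7, Akr1d1 and, by 2 bases, Cyp7a1 that transcript starts inside the gene as annotated, so their windows lie wholly or partly within the gene positions given above. The match lies 67 to 59 bases before the start in Cyp8b1 and 18 to 10 bases before it in Baat. The pair differed in expression, Cyp8b1 being at or near 0 in every library and Baat called higher in both cocktails. Hnf4a itself was at 99.2 and 90.3 CPM in DMSO, 260 and 247 in 3C, and 198 and 187 in 5C. A match of letters is a description and does not show that a factor binds there.

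Other genes of bile acid synthesis were followed in a list of 16, all tested. In 5C against DMSO 7 were called higher and 0 lower, in 3C against DMSO 6 higher and 1 lower, and in 5C against 3C 3 higher and 0 lower. For this and the lists that follow, the shares over all genes in those comparisons were 7.3%, 5.83% and 2.16% higher and 4.42%, 3.62% and 0.852% lower. Cyp39a1, the third liver 7-hydroxylase, which acts on 24-hydroxycholesterol, had 59.1 and 56.8 CPM in DMSO, 165 and 152 in 3C, and 108 and 114 in 5C. It followed the order of Acox2, highest in 3C, and was called there (log2 fold change 1.42, SE 0.0741, adjusted p = 3.65e-06), while in 5C it was at 0.96 (SE 0.0735, adjusted p = 1.62e-05). At 16.5 to 18.0 FPKM in DMSO, 46.9 to 47.9 in 3C and 32.2 to 33.3 in 5C, Cyp39a1 was above Cyp7b1 in every library.

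Cyp2c70, which makes the muricholic acids of mice, rose by log2 fold changes of 3.08 in 5C and 2.62 in 3C. Of the peroxisomal genes, Acaa1b, a thiolase, rose by 3.27 and 2.17 and was also higher in 5C than in 3C by 1.10 (SE 0.0888, adjusted p = 0.000258). Slc27a2, a second bile acid and fatty acid ligase, rose by 3.47 and 3.00, and Akr1c14, a hydroxysteroid dehydrogenase, by 2.13 and 2.41. Scp2, the sterol carrier and thiolase, rose in 5C (1.29) and stood at 0.92 in 3C. Scp2 shares 29.9% of its sequence words with other genes, most with Gm67972, and Acaa1b 14.5%, most with Acaa1a. Akr1c6, another dehydrogenase of the family, was at 0 in both DMSO libraries and at 1.17 and 2.15 CPM in 5C, at least 9.22-fold above the mean floor of the DMSO libraries. It passed the filter through the treated libraries, and its lower bound in 3C, where it is counted as called, was 1.44-fold.

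The enzymes of brain and immune oxysterols differed from these. Cyp46a1, the cholesterol 24-hydroxylase best known from neurons, had 1.43 and 1.47 CPM in DMSO, 1.45 and 1.57 in 3C, and 4.16 and 5.04 in 5C. It rose in 5C against DMSO (log2 fold change 1.68, adjusted p = 0.00154) and against 3C (1.66, adjusted p = 0.00476), and stood at 0.02 in 3C against DMSO (adjusted p = 0.965). Ch25h, the cholesterol 25-hydroxylase, was the 1 gene called lower, in 3C (-1.20, SE 0.313, adjusted p = 0.0217), where it had 2.49 and 2.40 CPM against 5.75 and 5.25 in DMSO. In 5C Ch25h had 2.16 and 4.03 CPM and stood at -0.81 against DMSO (SE 0.309, adjusted p = 0.0862 by edgeR). Its difference between 5C and 3C was 0.39 (SE 0.312, adjusted p = 0.524), so the fall is not shown to be particular to 3C. Amacr, Hsd17b4, Acot8, Abcd3, Hsd11b1, Star and Stard5 were called in no comparison.

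Besides Slc10a1, 8 genes of uptake and intracellular carriage were tested, with 4, 3 and 2 called higher and 0 lower in the 3 comparisons in the same order (7.3%, 5.83% and 2.16% of all genes higher). Slco1a4, an organic anion and bile acid transporter, had 0.328 and 0.273 CPM in DMSO, 3.73 and 4.41 in 3C, and 18.9 and 19.1 in 5C. Its log2 fold changes were 5.99 and 3.72 against DMSO and 2.27 between the cocktails (SE 0.176, adjusted p = 0.000242). Fabp1, the liver fatty acid and bile acid binding protein, moved in the same direction, with 6.92, 3.91 and 3.01. Slco1b2, the hepatocyte transporter of unconjugated bile acids, had 0.551 and 0 CPM in DMSO, 2.66 and 2.65 in 3C, and 16.4 and 16.0 in 5C. It was called in 5C against DMSO (5.89, SE 1.09, adjusted p = 0.0198). With 37 and 0 count units in DMSO, Slco1b2 passed the filter through the treated libraries, and the size of its fold change is imprecise. Slc10a5, an orphan relative of Slc10a1, rose by 1.70 in 5C and 2.09 in 3C. Slco1a1, Slco2b1, Slc10a2 and Ephx1 were called in no comparison.

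Export genes were mixed. All 10 entered the fit, and the calls were 6 higher and 1 lower in 5C against DMSO, 5 higher and 0 lower in 3C against DMSO, and 1 higher and 1 lower in 5C against 3C. Of all genes 7.3%, 5.83% and 2.16% were higher and 4.42%, 3.62% and 0.852% lower. Abcb11 (BSEP), the pump that secretes bile salts into the canaliculus, had 0.893 and 0.258 CPM in DMSO, 1.10 and 1.83 in 3C, and 16.4 and 14.6 in 5C. The 5C libraries stood far above the rest, with log2 fold changes of 4.77 against DMSO (SE 0.533, adjusted p = 0.000598) and 3.45 against 3C (SE 0.489, adjusted p = 0.00538), and 1.32 in 3C against DMSO did not pass (adjusted p = 0.117). Abcc4, which exports bile acids back across the basolateral membrane, fell in 5C by 1.51 against DMSO and by 1.80 against 3C on the log2 scale. Its values were 314 and 340 CPM in DMSO, 449 and 371 in 3C, and 139 and 88.7 in 5C.

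The canalicular lipid transporters rose in both cocktails. Abcb4, the phospholipid floppase, rose by 2.21 in 5C and 1.55 in 3C, and the partner sterol transporters Abcg5 by 3.28 and 2.38 and Abcg8 by 2.33 and 2.19. Atp8b1, a phospholipid flippase, rose by 1.14 and 1.04. Slc51b, the smaller subunit of the basolateral bile acid exporter, was at 0 in DMSO and at 1.07 and 0.823 CPM in 5C, at least 5.25-fold above the mean DMSO floor. It too passed the filter through the treated libraries, and in 3C, where it is counted as called, its lower bound was 1.29-fold, short of the 2-fold limit. Its partner Slc51a did not exceed 0.372 CPM in any library, and Slc51a, Abcc2 and Abcc3 were called in no comparison.

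Of 17 regulators 16 were tested, with 9, 12 and 1 called higher and 0 lower in the same order of comparisons (again 7.3%, 5.83% and 2.16% of all genes higher). Nr0b2, encoding SHP, the repressor of Cyp7a1 in the FXR circuit, had 1.59 and 2.00 CPM in DMSO, 8.56 and 8.27 in 3C, and 13.0 and 12.3 in 5C. It rose by 2.83 in 5C (SE 0.191, adjusted p = 7.8e-06) and 2.19 in 3C (SE 0.188, adjusted p = 4.32e-05). Nr1h4, encoding FXR, rose in 3C by 1.08 and stood at 0.96 in 5C. Nr5a2, encoding LRH-1, an activator of bile acid synthesis, rose in 3C by 1.54 and stood at 1.00 in 5C, and Fgfr4, the receptor for gut FGF15, at 1.18 and 0.82. Fgf15 itself was at 0 in all 6 libraries, while Klb, the co-receptor, rose by 1.62 in 3C and 2.22 in 5C.

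Hnf4a rose by 1.04 in 5C and 1.39 in 3C, and its coactivator Ppargc1a by 1.20 and 1.59. The nuclear receptors Nr1i2 (PXR) and Ppara rose by 1.91 and 1.69 in 5C and by 1.97 and 2.04 in 3C. Prox1, a corepressor of Cyp7a1, rose by 1.19 in 5C and 1.51 in 3C, and Onecut1, a hepatic transcription factor, by 1.44 and 2.15. Of the 5804 exonic bases of Onecut1, 2635 overlap Gm20649 or the antisense Gm68752, so its counts are uncertain. Gpbar1, the membrane bile acid receptor, was the 1 regulator called in 5C against 3C, at 1.25 (SE 0.259, adjusted p = 0.0137), with 7.28 and 5.73 CPM in 5C and 3.03 and 2.62 in 3C. In DMSO it had 1.09 and 1.44 CPM. Nr1h3, Mafg, Cebpa and Dbp were called in no comparison.

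**Figure D4:**
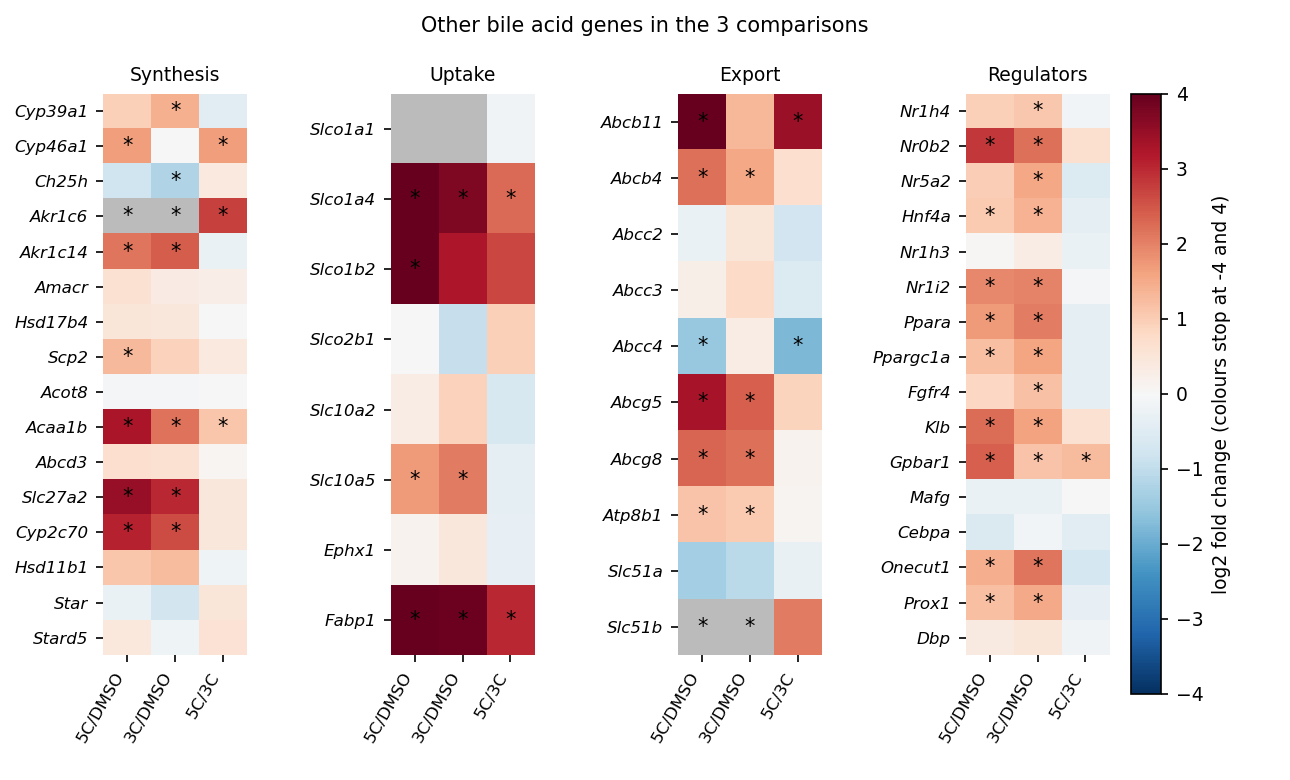
Log2 fold changes of the other tested synthesis, uptake, export and regulator genes in the 3 comparisons, red for higher and blue for lower, with a star for a call. Grey cells mark genes whose DMSO libraries were all at or under the floor. Abcb11 and Slco1a4 are deep red in 5C against DMSO, and Abcc4 is blue in both 5C comparisons.

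The genes whose log2 CPM followed Cyp7b1 most closely over the 6 libraries were Nek5 (Pearson's r = 0.9958), D630003M21Rik (0.9957) and Bspry (0.9954), among 14392 genes that averaged 1 CPM or more. For Cyp27a1 they were Itih5 (0.9961), Dlc1 (0.9947) and Ppp1r3c (0.9936). The 6 libraries form 3 groups, and 604 genes had r over 0.95 with Cyp7b1 and 292 with Cyp27a1.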

How the data were processed

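The authors deposited a gene table of estimated counts and an FPKM table, with build GRCm39. The submitters' processing notes name featureCounts, Subread and DESeq2, with versions not given in the sources used here. Libraries were made with the NEBNext Ultra RNA kit from total RNA of cultured dHeps. Counts were whole numbers and were taken as deposited. What 1 unit stands for is not stated. Values of 4 and 8 outnumber their neighbours, and 1 fragment was assumed to be 4 units. Values under 4 were also common, with 6338 entries at 1, 3119 at 2 and 3121 at 3, against 4816 at 4. They are not whole fragments on that assumption, which is therefore uncertain. It sets the floor of 12 units and the lower bounds drawn from it, but no test.

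Genes were filtered with filterByExpr and tested with edgeR 4.0.16 (TMM, robust quasi-likelihood, 1 term per group over all 6 libraries, 3 residual degrees of freedom) in R 4.3.3, and adjusted over 19135 genes. The common biological coefficient of variation was 18.4%, and replicates had r = 0.975 to 0.977. Intervals cover 95% and come from the fit's standard errors. Alternatives used DESeq2 1.42.0 and limma 3.58.1 on log2(FPKM + pseudocount). The members, lists and motifs were chosen with earlier results of these data known. All 10 members are named, as is every gene of the synthesis, uptake, export and regulator lists called in at least 1 comparison. The 3 closest profiles are given for each tested enzyme assigned to the classic or alternative pathway. List genes in no call are named beyond that rule. A planned regulator and a planned motif are not reported here. Positions and promoters are from the GENCODE vM39 annotation and genome of the same build. Figures were drawn with matplotlib 3.10.9.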

Additional observations from a re-analysis of the deposited data

How the results depend on the processing

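The number of members called higher in 5C against DMSO (5) was 3 with at least 10 counts in every library, which leaves Akr1d1 and Slc10a1 untested, and 0 by limma on log2(FPKM + 1) without a filter. In 3C against DMSO (6) that unfiltered fit gave 0, limma on log2(FPKM + 1) with the filter and the minimum of 10 counts each gave 4, without Akr1d1 and Slc10a1, and the test that required more than a 2-fold change gave 5. Limma on log2(FPKM + 1) without a filter called 7 genes in 5C against DMSO and 1 in 3C against DMSO among all 52327, and the cause was not tested. In 5C against 3C (2) the number was 1 with at least 10 counts in every library, 1 when the test itself required more than a 2-fold change, 1 by limma on log2(FPKM + 1), 0 by that fit without a filter, and 1 to 3 when single replicates were left out. Akr1d1 in 5C against 3C passed in 7 of 19 alternatives. The difference of Hsd3b7 between 5C and 3C changed sign to -0.01587 with upper quartile scaling, -0.009639 by limma on log2(FPKM + 1) with and without a filter and -0.009996 with a pseudocount of 0.1, and ran from -0.05228 to 0.04961 without single replicates. That of Cyp7b1 ran from -0.2226 to 0.0699. No member changed sign against DMSO. Dividing the counts by 4, an alternative chosen after seeing the data, called 5, 6 and 3 members.

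Over all tested genes, samples of the same number in different groups did not deviate together (r = -0.0306, 0.000683 and 0.0161). With 2 libraries a group, these values cannot show whether samples of the same number shared an animal or culture. With a replicate block 5, 6 and 2 members were called, and 2125, 1737 and 536 genes in all. The ratio of classic to alternative pathway had no value to vary, since the classic sum was 0 in 4 of 6 libraries. With 2 libraries a group and DMSO values of under 30 units, the fold changes of Akr1d1, Slc27a5 and Slc10a1 are imprecise.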
